A study of Mus musculus with 19 samples.

Results

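miR-126 is made as a hairpin whose 2 arms both give a mature microRNA (miRNA), mmu-miR-126-3p and mmu-miR-126-5p (mmu for mouse, left out from here on). The 2 arms were taken by their names in the scanner data, and they are 2 of the 696 mouse miRNAs on the array. Levels were followed over 19 one-colour Agilent arrays of liver RNA from 10-week-old male MutaMouse animals (transgenic strain 40.6), which carry a reporter for mutations in every group. Dosing was by daily gavage over 28 days, with 3 days between the last dose and removal of the liver. The control group received olive oil alone (0 mg/kg/day, 5 arrays). The low dose group received 6.25 mg/kg/day of dibenz[a,h]anthracene in olive oil (5 arrays), the middle dose group 12.5 mg/kg/day (4 arrays) and the high dose group 25 mg/kg/day (5 arrays). Dibenz[a,h]anthracene (DB[a,h]A) is a polycyclic aromatic hydrocarbon that activates the aryl hydrocarbon receptor and that liver enzymes convert into DNA-damaging metabolites. The labels describe 5 animals in every group, so the arrays are taken here as separate mice.

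miR-126 is transcribed with Egfl7, a gene of the vessel lining, and is among the most typical miRNAs of endothelial cells, which in liver line the sinusoids between the hepatocyte plates. The 3p arm lowers Spred1 and Pik3r2, which restrain the signal of vascular endothelial growth factor, and Vcam1, an adhesion molecule for leukocytes. The 5p arm lowers Dlk1 in mouse endothelial cells, and so favours their division after injury.

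The mature 3p arm is shown because it is the arm that matched by name in the RefSeq miRNA table. Its seed, the bases that pair with targets (bases 2 to 8 from the 5′ end), is in capitals. The hairpin is shown so that the place of the arm can be seen, with bases 46 to 67, the 3p arm, in capitals. In the RefSeq miRNA table (GRCm38.p6) 1 of the 2 arms matched, under the later name miR-126a-3p, at chr2:26591402-26591423 on the plus strand, and the hairpin lies at chr2:26591357-26591429 inside the span of Egfl7.
miR-126a-3p: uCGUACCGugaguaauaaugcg
mir-126a hairpin: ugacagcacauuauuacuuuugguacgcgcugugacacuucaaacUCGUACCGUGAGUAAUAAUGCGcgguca
Among the 1679 mature mouse sequences of that table, 1 holds this seed, miR-126a-3p itself, so no other listed mouse miRNA shares it.

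The arrays lay on 3 slides that each held all 4 groups, with 1, 1, 2 and 2 control, low, middle and high dose arrays on slide 1, 1, 2, 1 and 2 on slide 2, and 3, 2, 1 and 1 on slide 3. The signal of a whole array, the 75th percentile of the 220 probes that every array detected, was 219 to 491 intensity units in controls, 219 to 372 at the low dose, 176 to 304 at the middle dose and 139 to 226 at the high dose. The scanner software detected 181 to 209, 174 to 209, 157 to 184 and 155 to 184 miRNAs in these groups. Levels below are log2 of the signal over that percentile of the same array, so that 0 is a signal equal to it, and 208 miRNAs detected on at least 4 arrays were tested. miR-122, the defining miRNA of hepatocytes, was detected on 19 of 19 arrays. The number of arrays limits the precision of every comparison.

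miR-126-3p was well measured in all groups. It was detected on 19 of 19 arrays by 2 probes, each with 10 spots of which 8 to 10 were used, and the spots of its brighter probe varied by 2.17 to 6.66% (coefficient of variation). Before any scaling the brighter probe read 620, 707, 1180, 716 and 1245 intensity units in control replicates 1, 10, 17, 19 and 22. It read 669, 1118, 1077, 1061 and 660 units in low dose replicates 3, 11, 12, 18 and 24, 510, 521, 542 and 833 units in middle dose replicates 5, 6, 14 and 20, and 574, 587, 499, 348 and 578 units in high dose replicates 7, 8, 15, 16 and 23. The unscaled signals of the low dose arrays lay within the range of the controls, while all 5 high dose arrays and 3 of 4 middle dose arrays lay below every control.

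After scaling, the level of miR-126-3p was higher in the low dose livers. In controls it was 1.50, 1.04, 1.41, 1.32 and 1.34 in replicates 1, 10, 17, 19 and 22. In the low dose group it was 1.61, 1.59, 1.69, 1.57 and 1.57 in replicates 3, 11, 12, 18 and 24. The 5 low dose arrays all lay above the highest control, control replicate 1, and were close to each other, whereas control replicate 10 lay well under the other controls. In the middle dose group the level was 1.54, 1.57, 1.40 and 1.46 in replicates 5, 6, 14 and 20. In the high dose group it was 1.40, 1.37, 1.51, 1.32 and 1.40 in replicates 7, 8, 15, 16 and 23. Both of these groups overlapped the controls, with 2 of 4 middle dose arrays and 1 of 5 high dose arrays above every control.

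**Figure D1:**
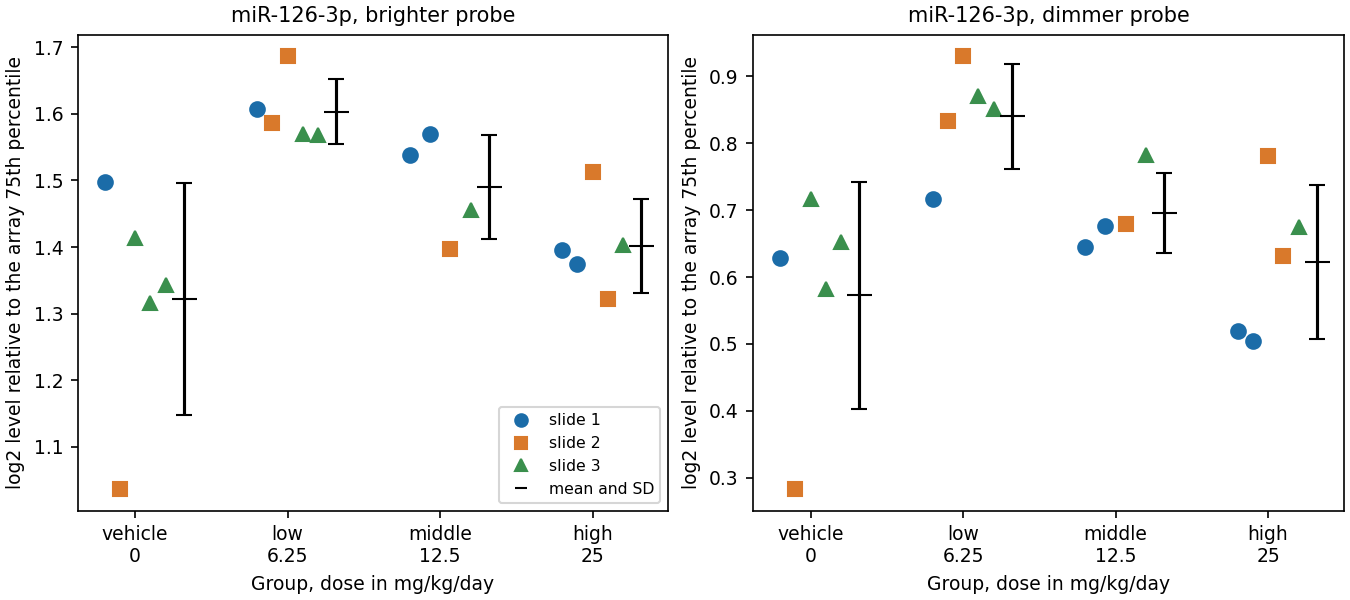
Level of miR-126-3p on each array by dose group (log2 of signal over the array's 75th percentile), for its brighter probe on the left and its dimmer probe on the right, with slides as colours and shapes and bars for the mean ± SD. On the brighter probe the 5 low dose arrays (1.57 to 1.69) lie above all 5 controls (1.04 to 1.50), and control replicate 10 is lowest on both probes.

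The mean level was 1.32 ± 0.17 for the controls (SD, n = 5), 1.60 ± 0.05 for low dose arrays (SD, n = 5), 1.49 ± 0.08 for middle dose arrays (SD, n = 4) and 1.40 ± 0.07 for high dose arrays (SD, n = 5). With the slide as a block, miR-126-3p rose at the low dose by 0.29 on the log2 scale (SE 0.07, 95% interval 0.15 to 0.43), which is 1.22-fold (1.11 to 1.35), with a limma adjusted p of 0.0268. The change was 0.16 at the middle dose (SE 0.07, interval 0.00 to 0.31, adjusted p = 0.191; 0.0692 without control replicate 10, adjusted p = 0.510) and 0.08 at the high dose (SE 0.07, interval -0.07 to 0.23, adjusted p = 0.528), and neither passed. The 3 comparisons share the same controls. So 1 of the 2 arms passed at the low dose, where 9 of 208 tested miRNAs did (4.33%), and neither passed at the middle dose, where 12 did (5.77%), or at the high dose, where 5 did (2.4%). In bulk liver, a different number of endothelial cells and a different amount of miR-126 per cell cannot be told apart.

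The median of all 208 tested miRNAs was itself above 0, at 0.07 for the low, 0.11 for the middle and 0.05 for the high dose. Relative to that median the change of miR-126-3p was 0.22 for the low, 0.05 for the middle and 0.03 for the high dose. At the low dose it had the 5th smallest p and the 14th largest change of the 208, and at the middle and high doses it ranked 83rd and 97th by change. Every low dose array exceeded every control for 3.37% of the tested miRNAs, and miR-126-3p was one of these. By change its place was therefore near the top of the 208 tested miRNAs at the low dose and near their middle at the other doses.

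An exact permutation test over arrays (two-sided) gave p = 0.00794 for the low dose, the smallest that 252 arrangements can give, and 0.0238 after adjustment over the 3 doses. The middle dose gave an exact p of 0.0952 (adjusted 0.143) and the high dose an exact p of 0.429. With arrays exchanged only within slides, the exact p at the low dose was 0.0167, the smallest of 60 arrangements, and 0.05 after adjustment, which is not under the threshold of 0.05. The slides differed in the size of the low dose difference, which was 0.11 on slide 1, 0.60 on slide 2 and 0.21 on slide 3. Slides 1 and 2 held 1 control each, and that of slide 2 was control replicate 10. Within the slides the middle dose difference was 0.06, 0.36 and 0.10, and the high dose difference was -0.11, 0.38 and 0.05. All 5 low dose and all 4 middle dose arrays lay above the control mean of their slide, as did 3 of 5 high dose arrays.

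The low dose call was lost when any of 6 single arrays was left out. Without control replicate 10 the change was 0.20 (limma adjusted p = 0.0704). Without control replicate 19 it was 0.29 (adjusted p = 0.0650), and without low dose replicate 3, 12, 18 or 24 it was 0.31, 0.26, 0.31 and 0.31 (adjusted p = 0.0530, 0.0605, 0.0553 and 0.0593). In each of the 19 fits that left out 1 array the change stayed above 0, between 0.20 and 0.34, and 13 of them passed.

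The dimmer probe of miR-126-3p gave nearly the same change, 0.28 at the low dose (adjusted p = 0.0380), 0.17 at the middle dose (adjusted p = 0.173) and 0.09 at the high dose (adjusted p = 0.475). Its mean level was 0.57 ± 0.17 for the controls (SD, n = 5), 0.84 ± 0.08 for low dose arrays (SD, n = 5), 0.70 ± 0.06 for middle dose arrays (SD, n = 4) and 0.62 ± 0.11 for high dose arrays (SD, n = 5). On this probe low dose replicate 3, at 0.72, did not exceed control replicate 17, at 0.72, so that 4 of 5 low dose arrays lay above every control. The signal of the dimmer over the brighter probe was 0.538 to 0.547 on slide 1, 0.592 to 0.620 on slide 2 and 0.601 to 0.627 on slide 3. The 2 probes of the same miRNA thus kept a ratio that depended on the slide, with slide 1 apart from the others, and low dose replicate 3 was on slide 1.

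The doses were also set against each other. miR-126-3p differed by -0.21 between the high and the low dose (SE 0.07, interval -0.35 to -0.07, limma adjusted p = 0.232), by -0.13 between the middle and the low dose (adjusted p = 0.454) and by -0.08 between the high and the middle dose (adjusted p = 0.919). None of these passed here. High against low passed without control replicate 10 (-0.22, adjusted p = 0.0213), and middle against low passed with the scaling percentile taken over all probes (-0.55, adjusted p = 0.0335). Between doses 1 of 208 miRNAs (0.481%) passed for high against low, 1 (0.481%) for middle against low and 0 for high against middle, where 14 (6.73%) had an unadjusted p under 0.05. The mean of the 3 doses stood 0.18 above the controls (SE 0.06, adjusted p = 0.0746, where 8.17% of miRNAs passed). The F test over the 4 groups gave an adjusted p of 0.0851 (0.962% passed). The slope over dose was -0.000334 log2 units per mg/kg/day (SE 0.00391, adjusted p = 1, 0.962% passed). With this scaling no slope over dose was detectable, while with no scaling between arrays the slope was -0.0290 and passed (adjusted p = 0.0204).

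The values depended on how the arrays were put on one scale. The low dose difference of miR-126-3p was positive in all 19 fits that left out 1 array and under all 24 other alternatives, but its size and call varied. It was 0.28 (limma adjusted p = 0.00852) when the miR-126 probes themselves were taken out of the scaling percentile and 0.21 (adjusted p = 0.0291) in the log2 value table the authors deposited. With quantile normalization it was 0.24 (adjusted p = 0.0817), with RNA spiked in before labelling as the reference 0.22 (adjusted p = 1), and with no scaling 0.11 (adjusted p = 1). The middle and high dose differences changed sign under some scalings. With the percentile taken over all probes they were -0.33 and -0.19, and with no scaling -0.42 and -0.63 (adjusted p = 0.165, 0.504, 0.303 and 0.0564). The labelling spike-ins read 11.97 to 12.63 on the log2 scale in controls, 12.00 to 12.36 at the low dose, 11.68 to 12.16 at the middle dose and 11.29 to 11.78 at the high dose. The calls over all tested miRNAs turned too. As reported, all 9, 12 and 5 calls were higher, whereas 35 of 36 middle dose calls were lower with all probes, 69 of 70 high dose calls were lower with no scaling, and 8 of 9 and 13 of 16 middle and high dose calls were lower with quantile normalization. With the total gene signal of the scanner software 10 of 11 middle and 6 of 8 high dose calls were lower, and of the deposited values' calls 4 of 7 and 3 of 14 were lower. With the labelling spike-ins as the reference, by contrast, all 23 high dose calls were higher. The part of the spike-in signal in the result, and that of the whole-array signal, was not tested beyond these alternatives.

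**Figure D2:**
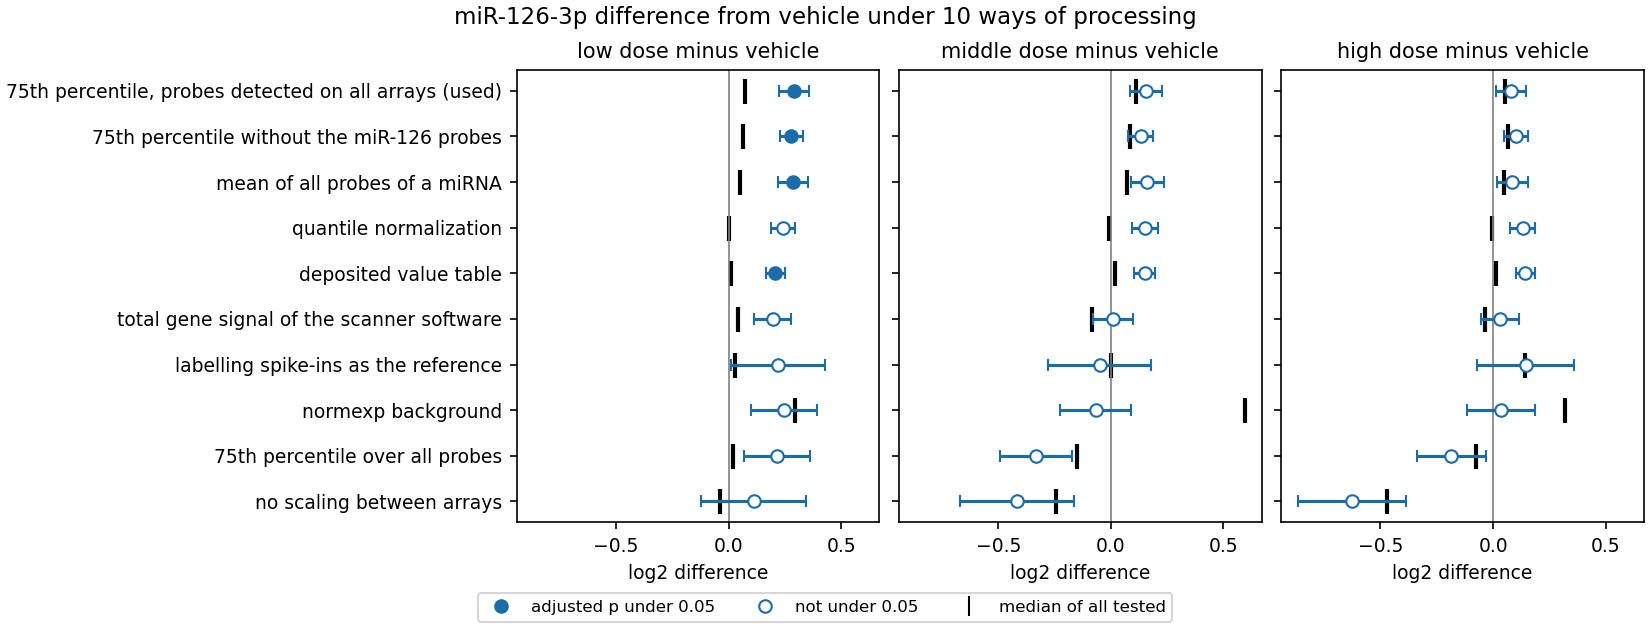
Difference of miR-126-3p between each dose and the controls (log2, points with SE bars) under 10 ways of processing, with filled points where the limma adjusted p is under 0.05 and black marks for the median of all tested miRNAs. The low dose difference lies above 0 in every setting shown (0.11 to 0.29). The middle and high dose differences fall below 0 with the percentile over all probes and with no scaling. That of the middle dose also does so with spike-ins (-0.0500) and normexp (-0.0678).

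miR-126-5p was close to the limit of measurement. The scanner software, whose detection call is per miRNA, detected it on 9 of 19 arrays, 4 of 5 controls, 4 of 5 low dose, 1 of 4 middle dose and 0 of 5 high dose arrays. By the software's flag on each spot, taken over most spots, its brighter probe was well above background on 6 of 19 arrays and its other probe on 0. Before scaling the brighter probe read 1.58, 10.8, 16.6, 8.27 and 14.9 intensity units in control replicates 1, 10, 17, 19 and 22. It read 2.77, 13.8, 13.5, 14.2 and 6.46 units in low dose replicates 3, 11, 12, 18 and 24. Low dose and control arrays thus covered the same range, with the lowest value of both on slide 1. It read 2.42, 3.18, 7.52 and 9.39 units in middle dose replicates 5, 6, 14 and 20, and 3.05, 1.73, 4.90, 3.09 and 5.89 units in high dose replicates 7, 8, 15, 16 and 23. The high dose signals, none of them detected, were under those of the 4 controls in which the miRNA was detected, and all of these readings are small against a local background of 26 to 33 units.

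**Figure D3:**
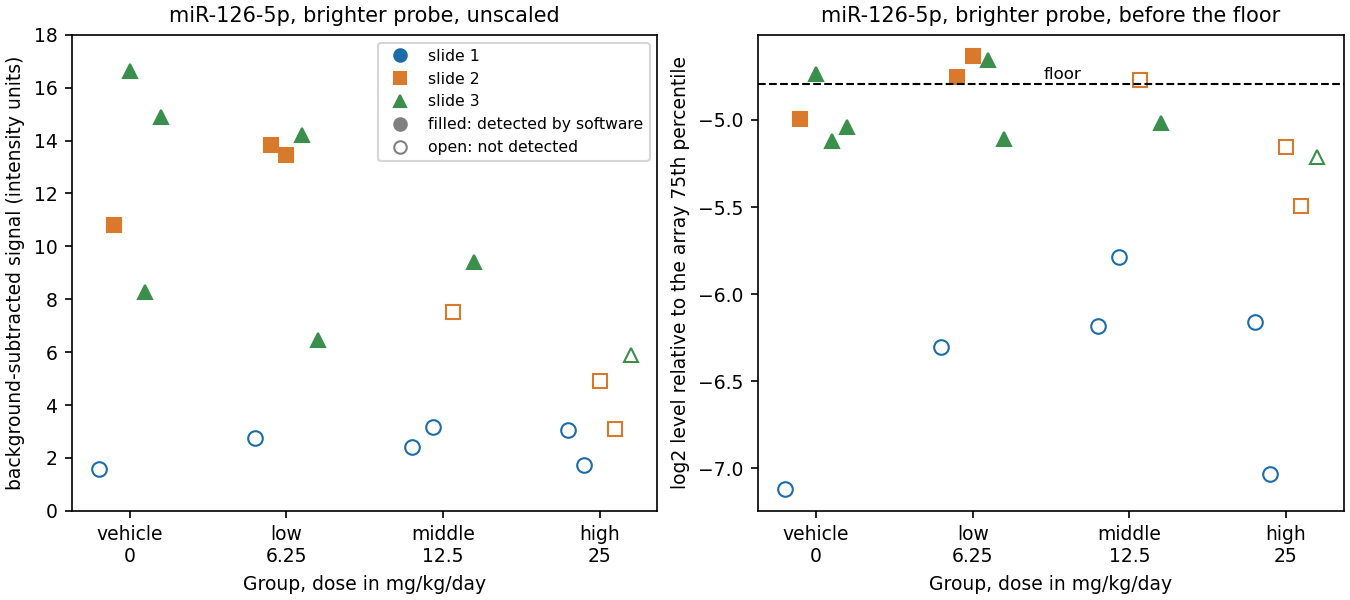
Signal of the brighter miR-126-5p probe on each array by dose group, unscaled in intensity units on the left and as log2 of signal over the array's 75th percentile before any floor on the right, with filled symbols where the scanner software detected it. No array of slide 1 is detected whatever its dose, and on the other slides the 3 high dose arrays, all undetected, read 3.09 to 5.89 units and the 4 controls 8.27 to 16.6 units; levels under the dashed floor have no order.

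Slide and dose group both went with the detection of miR-126-5p. On slide 1 it was detected on 0 of 6 arrays, 1 of them a control. On slides 2 and 3 it was detected on 4 of 4 controls (8.27 to 16.6 units), 4 of 4 low dose arrays (6.46 to 14.2 units), 1 of 2 middle dose arrays (7.52 to 9.39 units) and 0 of 3 high dose arrays (3.09 to 5.89 units). The whole-array percentile on these same arrays was 288 to 491 in controls, 223 to 372 at the low dose, 206 to 304 at the middle dose and 139 to 219 at the high dose. The arm and the whole array were both dimmest at the high dose, and the part of the array signal in the detection was not tested. Of 189 miRNAs detected on at least 4 controls, 8 (4.23%) were detected on no high dose array, and miR-126-5p was one of them.

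After scaling, 14 of 19 arrays were at the floor of -4.79 under which levels have no order, 4 of 5 controls, 2 of 5 low dose, 3 of 4 middle dose and 5 of 5 high dose arrays. The limma change was 0.05 at the low dose (SE 0.03, adjusted p = 0.463), -0.00126 for the middle dose (adjusted p = 1) and -0.00929 for the high dose (adjusted p = 0.968), and the F test had an adjusted p of 0.350. With so many arrays at the floor these values are bounded by it and say little of the size of any change. By the flag on each spot the brighter probe was well above background on 3 of 5 control, 3 of 5 low dose, 0 of 4 middle dose and 0 of 5 high dose arrays. The lowest signal that counts as above background on the middle and high dose arrays exceeded the control level, so no fold can be given.

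The ratio of the 2 arms within an array asks whether they changed unequally. With the floor on miR-126-5p the log2 ratio of 3p over 5p averaged 6.10 ± 0.17 for the controls (SD, n = 5), 6.33 ± 0.07 for low dose arrays (SD, n = 5), 6.28 ± 0.09 for middle dose arrays (SD, n = 4) and 6.19 ± 0.07 for high dose arrays (SD, n = 5). The low dose stood 0.23 above the controls (exact permutation p = 0.0159, 0.0476 adjusted over the 3 doses), the middle dose 0.18 (adjusted exact p = 0.119) and the high dose 0.09 (adjusted exact p = 0.310). Since miR-126-5p sat at one floor value on most arrays, this ratio mostly repeated the level of miR-126-3p. Without the floor the low, middle and high dose differences were -0.03, 0.21 and 0.49, all with an adjusted exact permutation p of 0.944. In the authors' deposited values they were 0.18, 0.18 and 0.19, all with an adjusted exact p of 0.0317. The sign of the low dose difference in this ratio thus depended on how dim signals were treated. An unequal change of the 2 arms was therefore not established.

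The miRNAs whose level followed miR-126-3p most closely over the 19 arrays, once slide means were removed, were miR-24 (Pearson r = 0.827), miR-10a (0.781), miR-20a (0.764), miR-20b (0.764) and miR-23a (0.729). The median r over the 136 candidates was 0.298, above 0, and all these levels share the scaling of their array. Group means were not removed, so differences between dose groups enter r, as does control replicate 10. A rise at the same dose as miR-126-3p is therefore partly built into the choice of these 5 and is no separate support. Of these 5, miR-10a, miR-20a and miR-20b rose at the low dose by 0.21, 0.27 and 0.27 (limma adjusted p = 0.0259, 0.0380 and 0.0259). Without control replicate 10 none of the 208 miRNAs passed at the low dose, these 3 included, and none did with the percentile over all probes, quantile normalization, no scaling, spike-ins or normexp. miR-24 and miR-23a changed by 0.18 and 0.27 there without passing (adjusted p = 0.0684 each) and rose at the middle dose by 0.21 and 0.34 (adjusted p = 0.0403 and 0.0339). For miR-126-5p, with 14 arrays at the floor, the highest r were those of miR-100 (0.618), miR-126-3p itself (0.557), miR-30b (0.461), miR-29a (0.441) and miR-24 (0.433), and the median over the candidates was 0.002.

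Other miRNAs with a known role in endothelial cells or vessel growth were listed beside the 2 arms. Of 25 such miRNAs 18 were tested and the other 7 were detected on no array. The low dose raised 4 of the 18, the middle dose 7 and the high dose 2, where 4.33, 5.77 and 2.4% of all tested miRNAs rose, and by limma 0 were lower at an adjusted p under 0.05 (0, 1 and 1 at an unadjusted one), with medians of 0.19, 0.17 and 0.14 against 0.07, 0.11 and 0.05 over all tested miRNAs. miR-139-5p, which is not restricted to vessels, passed at every dose, with changes of 0.50, 0.51 and 0.47 (limma adjusted p = 0.0138, 0.0110 and 0.0111). miR-23b, of the cluster that also makes miR-27b and a copy of miR-24, rose by 0.20, 0.26 and 0.22 (adjusted p = 0.0402, 0.0237 and 0.0482). At the low dose miR-10a and miR-20a rose as given above. At the middle dose miR-27a (0.38), miR-27b (0.28) and miR-92a (0.34) rose beside miR-23a and miR-24 (adjusted p = 0.0403, 0.0339 and 0.0320). Since miR-23b, miR-27b and a copy of miR-24 come from 1 cluster, the 7 middle dose calls are not 7 separate ones. The change of miR-126-3p was larger than the list's median at the low dose and smaller at the middle and high doses. Many of these miRNAs are made by hepatocytes and leukocytes too. Without control replicate 10 their call counts were 0 at the low dose and 1 at each other dose. With the percentile over all probes, quantile normalization, no scaling, spike-ins or normexp, 0 were higher at each dose. With the total gene signal 1 was higher, at the high dose. At the middle dose 1 was lower with all probes, with quantile normalization and with the total gene signal. At the high dose 1, 2 and 1 were lower with quantile normalization, no scaling and the total gene signal. With the miR-126 probes left out of the percentile 4, 5 and 2 were higher. In the deposited values 0 passed at the low dose, 1 was higher and 1 lower at the middle dose, and 1 was higher at the high dose.

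Markers of other cells moved beside miR-126-3p in part. Of 5 hepatocyte miRNAs 0 passed by limma at any dose (at an unadjusted p under 0.05, 0 at the low dose and 2 lower at each of the others), with medians of 0.04, -0.06 and -0.08. Under other scalings some did: with the percentile over all probes 4 of 5 were lower at the middle dose (median -0.55), with no scaling 5 of 5 were lower at the high dose (median -0.79), and without slide 1, 2 of 5 were higher at the high dose. As scaled here miR-122 changed by 0.10, 0.15 and 0.11, miR-192 by 0.08, -0.01 and 0.05 and miR-148a by 0.01, -0.15 and -0.18. Of 7 leukocyte miRNAs 4 were tested, and miR-223, abundant in myeloid cells, rose at each dose, by 0.37, 0.48 and 0.39 (limma adjusted p = 0.0382, 0.0198 and 0.0482). All 3 of these calls were lost without control replicate 10, and also with the percentile over all probes, quantile normalization, no scaling, spike-ins, normexp and the total gene signal. miR-142-3p (0.19, 0.20 and 0.12) and miR-146a (0.28, 0.17 and 0.15) did not pass, while miR-150, miR-155 and miR-146b, markers of lymphocytes or activated leukocytes, were detected on no array. The summed leukocyte signal, relative to the array percentile, was 1.16 to 1.59 in controls, 1.59 to 1.69 at the low dose, 1.43 to 1.79 at the middle dose and 1.33 to 1.82 at the high dose. Its part in the change of miR-126-3p was not tested.

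None of the tested erythroid (2 of 3 listed), stromal (4 of 6), bile duct (5 of 5) or pancreas and muscle miRNAs (2 of 8) passed by limma at any dose. At an unadjusted p under 0.05 there were 2, both stromal, higher at the middle dose. Under other processing, with no scaling 1 of 2 erythroid and 2 of 4 stromal miRNAs were lower at the high dose. With quantile normalization 1 stromal miRNA was lower at the high dose, and without slide 1 there was 1 higher at the middle dose. As scaled here the erythroid miR-451 changed by 0.04, -0.05 and -0.28 and miR-144 by 0.10, -0.17 and -0.34. The erythroid list sum was 7.34 to 10.4 in controls, 6.00 to 10.5 at the low dose, 5.15 to 13.5 at the middle dose and 6.06 to 8.72 at the high dose. Of the stromal list, miR-143 changed by 0.13, 0.83 and 0.10, miR-199a-3p by 0.17, 0.28 and -0.07 and miR-199a-5p by 0.17, 0.34 and -0.16, while miR-145, a defining miRNA of smooth muscle, was detected on no array. miR-200a, miR-200b and miR-200c of bile duct epithelium changed by 0.60, 0.61 and 0.34 at the low dose without passing. The bile duct list sum had a median of 0.262 in controls and 0.296, 0.466 and 0.272 at the low, middle and high dose. Its highest array read 0.362 in controls and 1.40, 1.06 and 2.79 at the low, middle and high dose. miR-200c, miR-141 and miR-429 of this list were each at the floor on 15 of 19 arrays. Medians of these lists at the low dose were 0.07, 0.15, 0.41 and 0.23 in the order named.

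**Figure D4:**
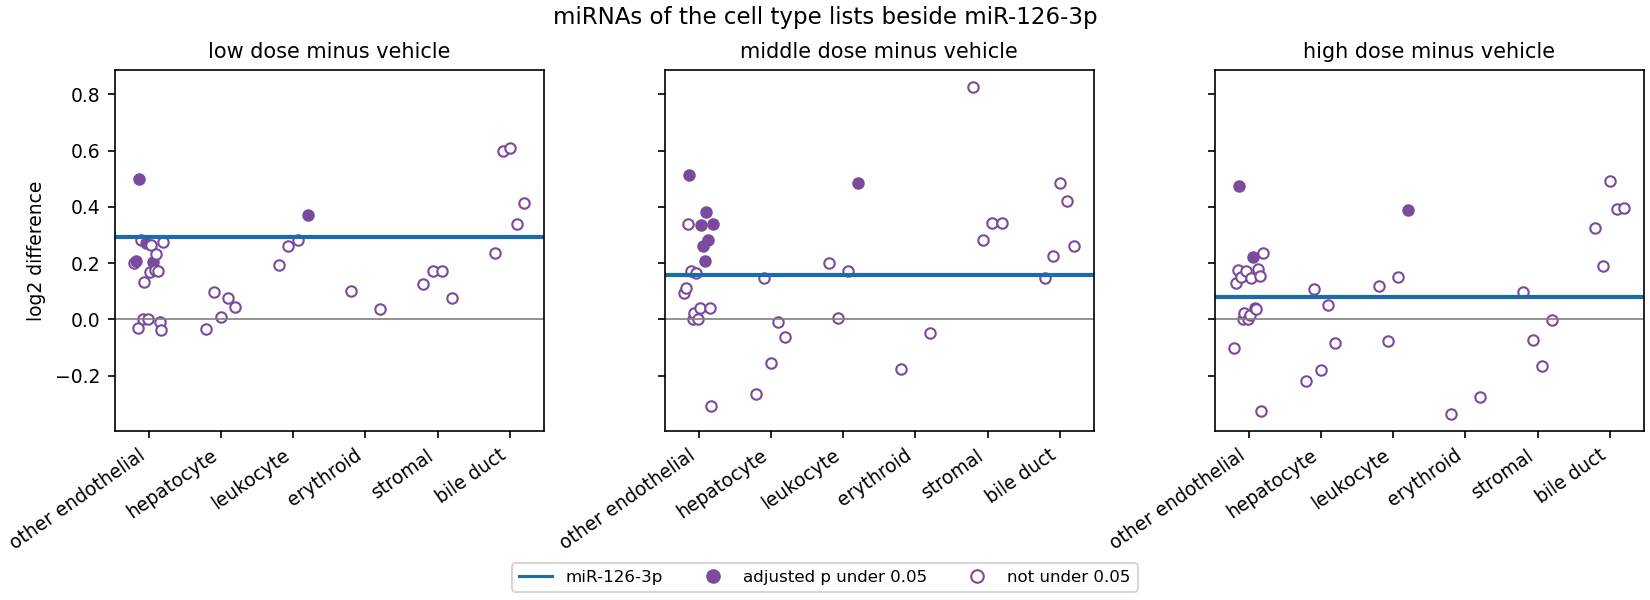
Log2 difference from controls at each dose for every tested miRNA of 6 cell type lists (1 point each, filled where the limma adjusted p is under 0.05), with a blue line for miR-126-3p. Filled points appear in the endothelial list (4, 7 and 2 of 18) and for miR-223 in the leukocyte list, and the line sits at 0.29, 0.16 and 0.08.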

How the data were processed

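Agilent Feature Extraction 10.7.3.1 read and background-subtracted each spot, per the file headers, giving an intensity with no scaling between arrays. The authors also deposited a value table on the log2 scale (692 miRNAs, 636 matched), by a method the sources used here do not give. From the intensity files, control spots were removed (13920 of 14635 spots kept). Spots flagged as outliers on an array were then left out of it, and the others were averaged within each of 1937 probes. Signals were divided by the array's 75th percentile of the 220 probes that every array detected. Values were put on the log2 scale with a floor of -4.79, and the brightest probe stood for its miRNA. The test was limma 3.58.1 (lmFit and eBayes in R 4.3.3) on all 19 arrays with slide as a fixed block. Contrasts were two-sided, and p-values were Benjamini-Hochberg adjusted over 208 miRNAs with a threshold of 0.05. The scripts were tested on simulated data. The normexp alternative (offset 50) used the median spot signal, because the scanner data held no mean signal column. The members, lists and tests were chosen with earlier results of these data known. The miRNAs named are the 2 arms, for each arm the 5 with the highest correlation, and, of each list, all that passed at any dose and up to 3 of the brightest; miR-150, miR-155, miR-146b and miR-145, detected on no array, were added after their values were seen. Alternatives covered scaling, background, floor, filter, probe choice, slide terms and single arrays. Replicates limit what p-values measure to the spread between the mice sampled.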

Additional observations from a re-analysis of the deposited data

Results flagged for a closer look

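In 4 of 20 groups of arrays tested, 1 array lay apart from the rest of its group by more than a gap test at the 95% level allows, where chance gives about 1 in 20 groups. The level of miR-126-5p was -4.73 in control replicate 17 and -4.77 in middle dose replicate 14, while all other arrays of those 2 groups were at the floor of -4.79, so the rest of each group had no spread. The log2 ratio of miR-126-3p over miR-126-5p without the floor was 8.62 in control replicate 1, next to 6.44 in the nearest control. The same ratio was 7.91 in low dose replicate 3, next to 6.68 in the nearest low dose array. Both of these arrays were on slide 1, where miR-126-5p was detected on 0 of 6 arrays.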

How the results depend on the processing

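miR-126-3p at the low dose was above 0 in all 19 fits without 1 array (0.20 to 0.34, adjusted p 0.0115 to 0.0704) and passed in 13, and in 12 of 21 other tested alternatives. It did not pass with the percentile over all probes (0.22), quantile normalization (0.24), no scaling (0.11), labelling spike-ins (0.22), normexp (0.25), the total gene signal (0.19), no filter on dim miRNAs (0.29, adjusted p = 0.111), only the dose group and controls (0.30, adjusted p = 0.0973) or exact permutation within slides (0.30, adjusted p = 0.05). For that permutation the unadjusted p was already the smallest of its 60 arrangements, so with the other doses as they were it could not pass. Within slides 1, 2 and 3 the low dose value was 0.11, 0.60 and 0.21. The middle dose value was -0.33, -0.42, -0.0500 and -0.0678 with all probes, no scaling, spike-ins and normexp, 0.0561 and 0.36 within slides 1 and 2, and 0.0692 to 0.21 without 1 array, lowest without control replicate 10. The high dose value was -0.19 and -0.63 with all probes and no scaling, -0.11 and 0.38 within slides 1 and 2, and -0.0184 to 0.13 without 1 array, below 0 without control replicate 10. Middle against low passed with all probes (-0.55, adjusted p = 0.0335). High against low was -0.26 to -0.18 without 1 array and passed without control replicate 10 (-0.22, adjusted p = 0.0213). High against middle was 0.15, 0.19, 0.10 and 0.0187 with all probes, spike-ins, normexp and total gene signal. The mean of doses was -0.10 and -0.31 with all probes and no scaling and passed with quantile normalization (0.17), without the miR-126 probes in the percentile (0.17) and in the deposited table (0.17); without 1 array it was 0.0829 to 0.23 and passed without control replicate 1 (adjusted p = 0.0284). The F test passed without the miR-126 probes (adjusted p = 0.0255) and without control replicate 1 (0.0389; range 0.0389 to 0.153). The trend per mg/kg/day passed with no scaling (-0.0290, adjusted p = 0.0204), was -0.00464 to 0.000966 without 1 array, and was above 0 with quantile normalization (0.00255), spike-ins (0.00298), without the miR-126 probes (0.000679), the deposited table (0.00347), the dimmer probe (0.000318), no slide term (0.000165), slide and row (0.00152) and without slide 1 (0.00285).

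miR-126-5p at the low dose was -0.000203 with no scaling. At the middle dose it was 0.00285 without the miR-126 probes, 0.69 with normexp, 0.0156 with slide and row, 0.0261 with array signal as a covariate, 0.0198 and -0.0195 within slides 2 and 3, and -0.00925 to 0.00834 without 1 array. At the high dose these settings gave 0.00183, 0.32, 0.0154 and 0.0243, with 0, 0 and -0.0195 within slides 1, 2 and 3 and -0.0183 to 2.3e-05 without 1 array. Middle against low was 0.36 with normexp, and high against low had an adjusted p of 0.0401 with the total gene signal (-1.10), which is no measured fold because the arm was detected on 0 of 5 high dose arrays. The mean of doses was -0.0699, -0.101, -0.229, -0.0445, -0.0297 and -0.491 with all probes, quantile normalization, no scaling, spike-ins, the deposited table and the total gene signal. The trend was 0.0104, 0.000393 and 0.000239 with normexp, slide and row, and array signal.

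The ratio of the arms at the low dose was 0.25 (adjusted p = 0.05) permuted within slides, -0.18 with normexp and -0.0302 without the floor, and 0.16 to 0.27 without 1 array, not passing without control replicate 10, 19 or 22 or low dose replicate 3, 11, 12 or 24 (0.16, 0.23, 0.23, 0.21, 0.22, 0.23 and 0.22). At the middle and high doses it was -0.96 and -0.49 with normexp, passed in the deposited table (0.18 and 0.19), and was 0.11 to 0.22 and 0.0233 to 0.14 without 1 array, passing without control replicate 1 (0.22 and 0.14).

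The number of miRNAs passing at the low dose was 0 with all probes, quantile normalization, no scaling, spike-ins, normexp, total gene signal or no filter, 2 in the deposited table, 3 with no slide term, and 0 to 13 without 1 array. At the middle dose it was 36 with all probes, 2 with no scaling, no filter, slide and row, or only the dose group and controls, 1 with spike-ins, normexp or array signal, 7 in the deposited table, 5 without slide 1, and 2 to 36 without 1 array (36 without control replicate 1). At the high dose it was 1 with all probes, normexp, or slide and row, 16 with quantile normalization, 70 with no scaling, 23 with spike-ins, 10 without the miR-126 probes, among miRNAs detected on all arrays or with slide as a random block, 14 in the deposited table, 8 with total gene signal, 2 with a floor 4 times higher, array signal, or only the dose group and controls, 3 with no filter, 19 with no slide term, 36 without slide 1, and 1 to 23 without 1 array (23 without control replicate 1). The causes were not tested. No paired analysis was possible because the groups share no replicate numbers. miR-126-3p signals were far above background on all arrays, while those of miR-126-5p limit any statement on that arm.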
